A study of Mus musculus with 15 samples.

Results

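Nucleosome occupancy around promoters was compared between 2 ChIP-MNase libraries recovered with an antibody against RNA polymerase II phosphorylated at serine 7 of its C-terminal repeats (pol-II S7P) and 2 libraries recovered with an antibody against histone H3 monomethylated at lysine 4 (H3K4me1). These are 4 of the 15 samples of the series, and they were chosen by antibody target, cell type and treatment as given in the labels. All 4 came from 3T3 cells, an immortalised mouse embryonic fibroblast line, collected 1 h after TNF-α at 5 ng/ml, and none carried the knockdown of the BAF remodelling complex that other samples of the series carry. The 2 H3K4me1 libraries are the TNF-α-treated controls of that knockdown experiment, each from 1 replicate, and the 2 S7P libraries are the replicates of a separate pol-II experiment. Whether the control cells carried an empty vector is not given in the sources used here. Of 25881 annotated promoters, the 13559 with a coverage score above 100 were analysed, and every occupancy was divided by the mean of its own library over these promoters, so that 1 is the library average. The paper kept the same number of promoters by coverage in its resting dendritic cell and fibroblast sets, which were H3K4me1 sets.

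In ChIP-MNase, fixed chromatin is sheared to long pieces, captured with an antibody and then trimmed with micrococcal nuclease, which digests linker DNA and leaves nucleosome-protected fragments. H3K4me1 lies on nucleosomes flanking both transcribed and silent promoters, and so recovers copies of a promoter in either state. Serine 7 of the pol-II C-terminal domain is phosphorylated on transcribing polymerase, so S7P recovers copies that carry polymerase; the study calls these active alleles. Promoters of expressed genes typically hold a nucleosome-depleted region (NDR) just upstream of the transcription start site (TSS), followed by a well placed first nucleosome, termed +1, and further nucleosomes at regular spacing. TNF-α acts in fibroblasts mainly through NF-κB, which binds upstream of chemokine, adhesion and feedback inhibitor genes and switches them on within the hour.

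The 2 antibodies differed in how the libraries were made as well as in what they captured. The H3K4me1 libraries were read from one end and the S7P libraries from both ends, with fragments of 140 to 180 bp kept, and the deposited names carry the tag 12U for both H3K4me1 libraries and 2U for S7P replicate 1. They also came from separate experiments, and the control cells may have carried a vector. Antibody, experiment, any such vector, read type, fragment selection and digestion cannot be told apart in any difference given here. Fragment totals per library are not in the tables, so the share of 10 bp bins with a value above 0 stands in for depth: it was 69.2% and 80% in S7P replicates 1 and 2, and 73.4% and 63.5% in H3K4me1 replicates 1 and 2. Between 148 and 161 promoters were empty in an S7P library and between 183 and 198 in an H3K4me1 library, and 122 were empty in all 4.

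The labels were checked against transcription, because S7P should follow it. Promoters were classed as active (6397, gene expression in resting fibroblasts above 0.02 times the mean), inactive (2290, expression 0) or inducible (112, by the array difference after TNF-α), and 4760 fitted none of these; "active" describes the gene in resting cells. Covered bins were 79.0% and 86.8% at active against 53.1% and 65.6% at inactive promoters in S7P replicates 1 and 2. In H3K4me1 replicates 1 and 2 they were 74.1% and 62.5% at active against 67% and 61.3% at inactive promoters. The gap between active and inactive promoters was thus 25.9 and 21.2 percentage points in the S7P libraries and 7.11 and 1.20 points in the H3K4me1 libraries, with no overlap (two-sided exact permutation test over the 4 libraries, p = 0.33, the smallest p that 2 against 2 allows). By the paper's description the coverage filter rests on H3K4me1 signal, and it kept 2290 of 7450 inactive and 6397 of 10310 active promoters. Inactive promoters thus entered only where H3K4me1 coverage was high, which can narrow the H3K4me1 gap in advance. The check of the label therefore rests on the gap within the S7P libraries.

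Within active promoters S7P coverage also followed expression. From the lowest to the highest of 5 expression groups, covered bins went from 74.0% to 83.6% in S7P replicate 1 and from 83.6% to 89.6% in replicate 2. In the H3K4me1 libraries the same groups lay at 74.5% and 73.6% for replicate 1 and at 63.4% and 61.7% for replicate 2. Coverage downstream of active start sites exceeded that upstream by 3.13 and 3.02 points in the S7P libraries and by 0.757 and 0.482 points in the H3K4me1 libraries (exact p = 0.33). S7P chromatin was therefore richer over expressed genes and on their transcribed side in both replicates.

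**Figure D1:**
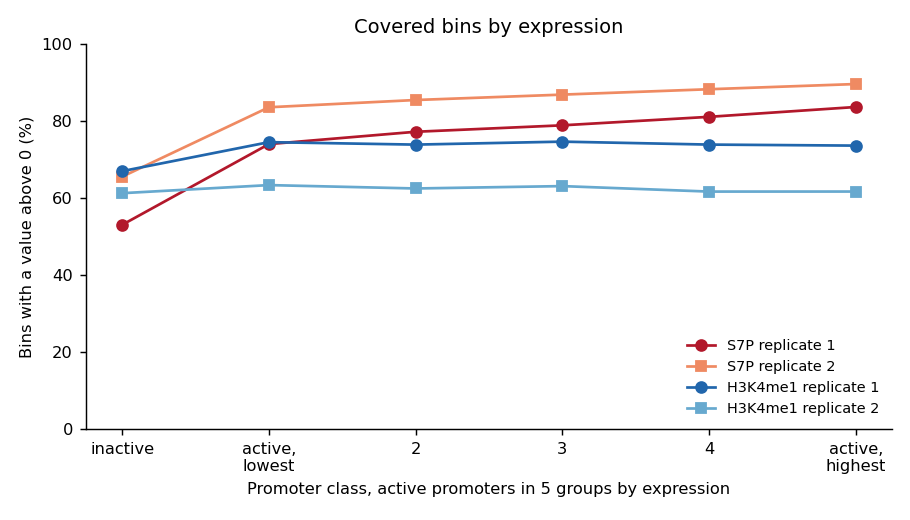
Share of 10 bp bins with a value above 0 (y axis, percent) at inactive promoters and at active promoters in 5 groups by expression (x axis), 1 line per library. Both S7P lines climb from the inactive class to the highest expression group, reaching 83.6% and 89.6%, while the H3K4me1 lines stay near 74% and 62% across active groups.

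Gene lists divided the antibodies less evenly. The 17 tested promoters of fibroblast genes (15 genes) were covered at 83.1% and 89.4% in S7P and at 82.2% and 68.8% in H3K4me1 replicates 1 and 2. At 17 promoters of immune cell genes the S7P values were 56.6% and 77.7% against 81.8% and 74.7% in H3K4me1, and at 7 promoters of epithelial, muscle and neural genes they were 64.4% and 86.4% against 85.1% and 70%. The groups overlapped at both of these lists, and S7P replicate 2 lay above H3K4me1 replicate 2 in each. Cytosolic ribosomal protein genes, which are transcribed heavily in growing cells, were covered at 90.8% and 93.3% in S7P and 67.8% and 58.4% in H3K4me1 at 69 promoters. At 92 olfactory receptor promoters, silent in fibroblasts, coverage was 55.5% and 60.1% in S7P and 66.7% and 64.5% in H3K4me1. These 92 are the ones of 1102 that passed the coverage filter. Since that filter rests on H3K4me1 coverage, higher H3K4me1 values at silent genes were favoured in advance and are no evidence about the antibodies. The same filter applied to the immune cell and other lists.

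The central comparison asks whether copies of a promoter that carry transcribing polymerase hold their nucleosomes differently from H3K4me1-marked copies. At active promoters both antibodies recovered the same architecture: a trough upstream of the TSS, a +1 nucleosome centred 135 to 145 bp downstream and phased nucleosomes beyond it. The spacing, taken from the first 3 peaks of the autocovariance, was 185 and 175 bp in S7P and 180 and 175 bp in H3K4me1. The height of the +1 peak was 1.53 and 1.56 times the library mean in S7P and 1.42 and 1.56 in H3K4me1, so that the groups overlapped (difference 0.05, exact p = 1.0). In bulk chromatin, partial occupancy of every copy and full occupancy of some copies cannot be told apart.

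**Figure D2:**
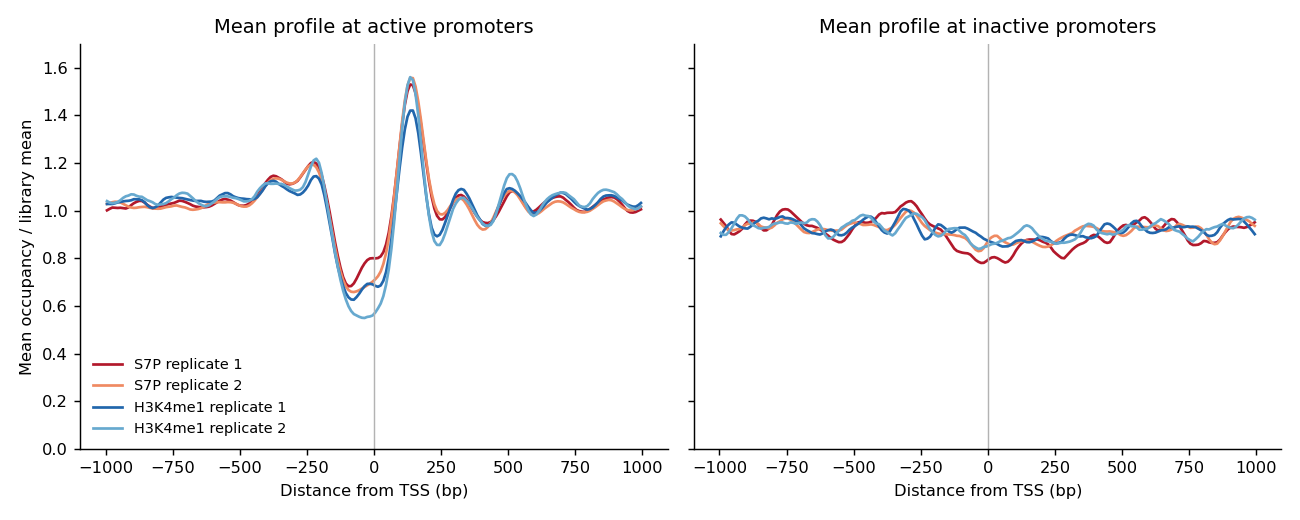
Mean occupancy divided by the library mean (y axis) by distance from the TSS (x axis, bp) at 6397 active (left) and 2290 inactive (right) promoters, 1 line per library. At active promoters both S7P lines lie above both H3K4me1 lines in 13 of the 15 bins from −150 to 0 bp and throughout 200 to 270 bp. At inactive promoters no library shows a phased pattern.

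The NDR held more signal in S7P chromatin. The NDR ratio, which sets the mean profile between −150 and 0 bp against its level in the distal flank at −1000 to −500 bp, was 0.735 and 0.687 in S7P replicates 1 and 2 and 0.655 and 0.587 in H3K4me1 replicates 1 and 2. The groups did not overlap, with means of 0.711 ± 0.034 and 0.621 ± 0.048 (SD, n = 2 each) and a difference of 0.090 (exact p = 0.33). At the lowest point of the trough the profiles stood at 0.683 and 0.658 in S7P against 0.626 and 0.549 in H3K4me1. The other H3K4me1 sets of the series qualify this: resting control replicate 1 had a ratio of 0.699, between the 2 S7P values, whereas resting control replicate 2 had 0.535 and the pooled resting and stimulated sets 0.502 and 0.456.

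Part of the contrast lay at and just after the start site. In all 6 bins from the TSS to 60 bp both S7P profiles were above every one of the 6 H3K4me1 sets, resting and pooled sets included. At 25 bp the profiles were 0.808 and 0.745 in S7P and 0.686 and 0.610 in the 2 stimulated H3K4me1 libraries. In the 15 bins of the NDR itself both S7P profiles were above both stimulated H3K4me1 libraries in 13 bins, but above all 6 sets in 0.

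The linker after the +1 nucleosome and an upstream shoulder were further places of difference, both picked after the mean profiles had been seen. In the linker, from 200 to 270 bp, the mean was 1.01 and 1.03 in S7P and 0.924 and 0.893 in H3K4me1, a difference of 0.11 against SDs of 0.012 and 0.022 (exact p = 0.33). In each of the 7 bins of this window both S7P profiles were above all 6 H3K4me1 sets. The same held for 12 of the 15 bins of the upstream shoulder from −350 to −200 bp, where the means were 1.15 and 1.15 in S7P and 1.10 and 1.13 in H3K4me1. The distal flanks went the other way: of 50 bins from −1000 to −500 bp the S7P profiles were below both H3K4me1 libraries in 39, and of 50 bins from 500 to 1000 bp in 36. Occupancies are relative within about 1 kb, so signal gained near the TSS and signal lost in the flanks are linked by construction.

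**Figure D3:**
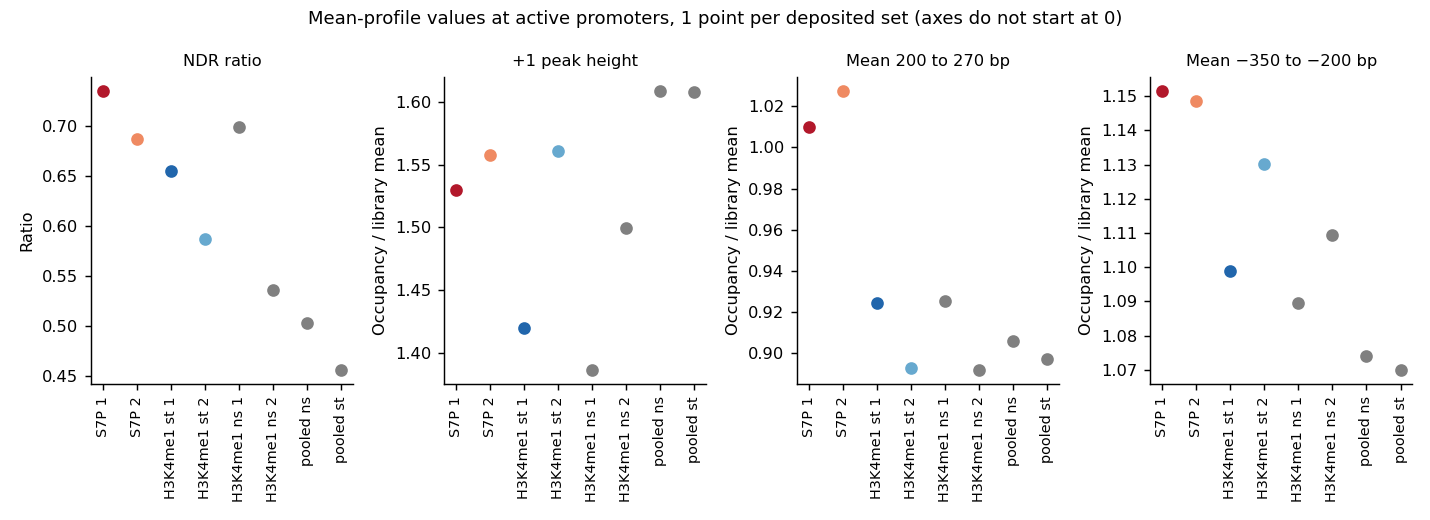
Values of the mean profile at active promoters (y axes, NDR ratio or occupancy divided by the library mean, not starting at 0) for the 2 S7P libraries, the 2 stimulated H3K4me1 libraries (st) and, in grey, the 2 resting control libraries (ns) and the pooled sets. The S7P points are above every H3K4me1 point from 200 to 270 bp and from −350 to −200 bp, overlap them in +1 height, and in NDR ratio enclose resting control replicate 1.

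Empty windows moved with the NDR difference. At active promoters the NDR window was listed at 0 in 8.46% and 5.00% of promoters in S7P and in 18.8% and 32.5% in H3K4me1, and the +1 window in 7.91% and 4.24% against 14.8% and 25.1%. Among promoters whose coverage averaged over the libraries was 80% or more, an alternative added after the data were seen, the NDR ratio difference was 0.094 and the difference after +1 was 0.10. That average does not make coverage equal between the antibodies, and the part of coverage was not tested. At inactive promoters the order of empty NDR windows was 29.4% and 18.9% in S7P and 17.5% and 22.1% in H3K4me1.

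At inactive promoters no NDR difference of the same direction was present. The ratio was 0.874 and 0.933 in S7P and 0.973 and 0.942 in H3K4me1, so that S7P lay lower there. The fall from inactive to active promoters within a library was 0.14 and 0.25 in S7P and 0.32 and 0.35 in H3K4me1, without overlap (exact p = 0.33). From 200 to 270 bp active exceeded inactive promoters by 0.17 and 0.17 in S7P and by 0.049 and 0.024 in H3K4me1 (exact p = 0.33).

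The NDR difference was present at promoters in CpG islands, stretches rich in unmethylated CG dinucleotides that most housekeeping genes start in, and not at other active promoters. A promoter was called CpG-island when the 200 bp on either side of the TSS were over 50% G and C and held CpG at more than 0.6 times the frequency expected from the base composition. At 4938 active CpG-island promoters the NDR ratio was 0.713 and 0.652 in S7P and 0.610 and 0.520 in H3K4me1. At 1458 active promoters without an island it was 0.807 and 0.804 in S7P and 0.811 and 0.821 in H3K4me1. The difference between promoters with and without islands was −0.09 and −0.15 in S7P and −0.20 and −0.30 in H3K4me1, and these did not overlap (exact p = 0.33). Coverage moved with the islands too: island promoters exceeded the others by 8.61 and 4.22 points in S7P and differed from them by −5.43 and −7.17 points in H3K4me1, and the part of coverage in the NDR difference was not tested.

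Expression moved the NDR difference unevenly. From the lowest to the highest of the 5 expression groups the NDR ratio in S7P minus that in H3K4me1 was 0.056, 0.087, 0.095, 0.14 and 0.072, and in none of the groups did the libraries overlap in this ratio. NDR occupancy not divided by the flank did overlap in the lowest group (0.782 and 0.729 in S7P, 0.734 and 0.682 in H3K4me1). It also overlapped in the highest group (0.729 and 0.673 in S7P, 0.678 and 0.595 in H3K4me1), but not in the groups between. The NDR ratio of the highest minus the lowest group was −0.05 and −0.05 in S7P and −0.05 and −0.09 in H3K4me1 (exact p = 1.0). For the fourth group minus the lowest it was −0.02 and −0.03 in S7P and −0.08 and −0.14 in H3K4me1, without overlap (exact p = 0.33), and the groups between these also fell less in both S7P libraries. After +1 the step from the lowest to the highest group was 0.089 and 0.044 in S7P and 0.0051 and 0.017 in H3K4me1 (exact p = 0.33).

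The patterning level of a promoter, its scalar agreement with the mean profile of active promoters in the pooled resting set, was used to compare single promoters. At active promoters its median was 4.33 and 4.94 in S7P and 4.55 and 5.48 in H3K4me1, and the groups overlapped (difference −0.38, exact p = 0.667). CpG islands split this measure: at active promoters without an island the medians were 2.86 and 2.90 in S7P and 2.31 and 2.54 in H3K4me1, without overlap (difference 0.45, exact p = 0.33), and at island promoters they were 4.66 and 5.47 against 5.16 and 6.23 (difference −0.64, exact p = 0.667). At inactive promoters the medians were 0.85 and 0 in S7P and 0 in both H3K4me1 libraries. The single S5P library, made with an antibody against the serine 5 form found on initiating polymerase, had a median of 10.6 at active promoters, above all 4.

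Low-patterned promoters are of interest because an NDR present only on transcribing copies would be diluted in H3K4me1 chromatin and visible in S7P chromatin. Of the 112 inducible promoters, the 56 below the class median in the pooled resting set were called low-patterned; that set is not among the 4 libraries. Their median patterning level was 2.90 and 0.49 in S7P and 2.11 and 1.90 in H3K4me1. The 2 S7P replicates thus enclosed both H3K4me1 libraries (difference −0.31, exact p = 1.0). The 56 high-patterned inducible promoters had medians of 5.19 and 5.96 in S7P and 4.06 and 7.43 in H3K4me1.

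In each library most low-patterned inducible promoters lay below the median of the high-patterned ones, a line that divides the high-patterned class evenly. In S7P replicate 1, 36 of the 56 (64.3%, 95% Wilson interval 51.2 to 75.5%) lay below the median of the high-patterned promoters of the same library, and in replicate 2, 45 (80.4%, 68.2 to 88.7%). The counts were 38 (67.9%, 54.8 to 78.6%) and 46 (82.1%, 70.2 to 90%) in H3K4me1 replicates 1 and 2; these intervals cover the number of promoters only. In both S7P libraries at once 30 were below and 5 were above, against 32 and 4 in both H3K4me1 libraries. The NDR ratio of the low-patterned class was 0.787 and 0.872 in S7P and 0.801 and 0.820 in H3K4me1, overlapping as well.

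Active promoters in the lowest 25% of patterning level numbered 1599. They overlapped between the antibodies in median patterning level and NDR ratio, but not in some other values of the profile. Their NDR ratio was 0.893 and 0.850 in S7P and 0.859 and 0.809 in H3K4me1 (exact p = 0.667). Their median levels were 1.36 and 1.63 in S7P and 0.78 and 1.79 in H3K4me1 (difference 0.20, exact p = 1.0). Their +1 peak was 1.17 and 1.18 times the library mean in S7P and 1.06 and 1.10 in H3K4me1, without overlap (difference 0.094, exact p = 0.33). The S7P libraries were likewise both higher from 200 to 270 bp (1.04 and 1.06 against 1.01 and 1.03) and in the upstream shoulder (1.05 and 1.04 against 1.01 and 1.02). Coverage moved with these values, at 76.2% and 85.5% in S7P and 75.3% and 63.3% in H3K4me1, and its part in them was not tested. The other active promoters had medians of 5.26 and 5.85 in S7P and 5.56 and 6.64 in H3K4me1. Of the 1599, 73.4% and 76.2% lay below the median of the others in S7P and 75.1% and 74.4% in H3K4me1.

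**Figure D4:**
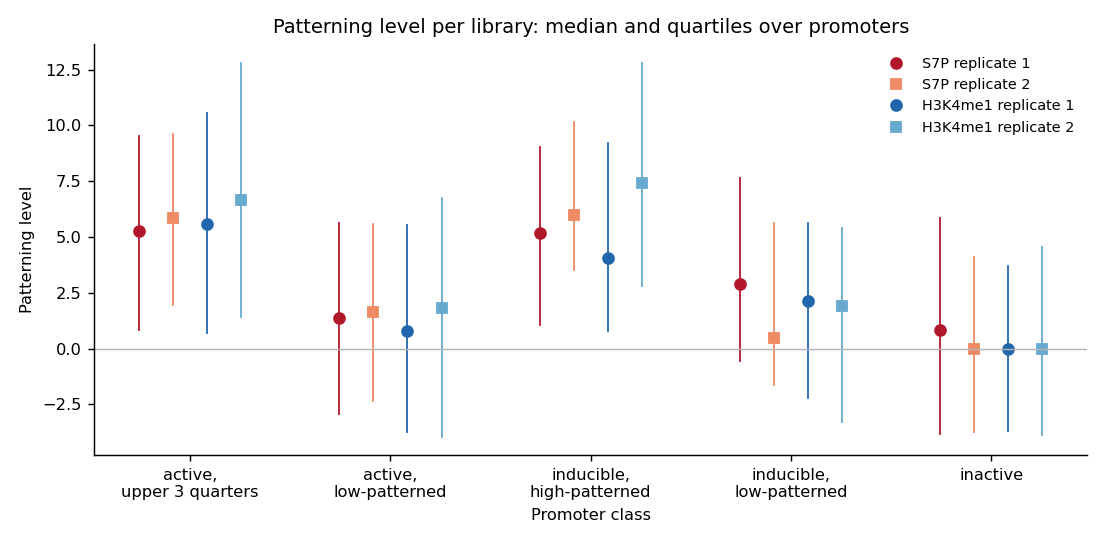
Patterning level (y axis, no unit) by promoter class (x axis) in each library; points are medians and lines the lower to upper quartile over promoters, not replicate error. The 4 medians of each class lie within the quartile lines of one another, and the low-patterned classes sit below their counterparts in all 4 libraries.

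Promoter by promoter, no difference passed the test. Fitted across the 13559 promoters with limma's moderated test and Benjamini-Hochberg adjustment, 0 promoters (0% called) were called at an adjusted p under 0.05 for patterning level, 0 (0%) for NDR occupancy and 0 (0%) for +1 occupancy. The smallest adjusted p was 0.747 for patterning level, 0.33 for NDR and 0.388 for +1 occupancy. At an unadjusted p under 0.05, 405 promoters were higher and 414 lower in S7P for patterning level, 957 higher and 353 lower for the NDR, and 675 higher and 542 lower for +1. Single promoters were noisy: the rank correlation of patterning level over promoters was 0.348 between the S7P replicates, 0.272 between the H3K4me1 replicates and 0.217 to 0.305 across antibodies.

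With all 4 single control H3K4me1 libraries in the fit, resting ones included, and a term for stimulation, 79 promoters were called for the NDR (75 higher, 4 lower in S7P) and 61 for +1 (49 higher, 12 lower). Without S7P replicate 1 the counts were 706 for the NDR, 664 of them with no spread at all in the remaining pair, and at +1 203 promoters with no spread were called. Without S7P replicate 2 it was 570 for the NDR, 542 with none, and without H3K4me1 replicate 2 it was 239 for +1, all with none. The calls in fits without 1 library thus came mostly from windows listed at exactly 0 in both libraries of the remaining pair.

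Counts of promoters where both S7P libraries lay outside the H3K4me1 pair show where the balance leaned. Over all promoters both S7P values were higher in 17.8% and lower in 18.6% for patterning level, higher in 22.1% and lower in 15.7% for NDR occupancy, and higher in 20.2% and lower in 17.1% for +1 occupancy. At active promoters the NDR shares were 28.2% higher and 12.8% lower, with a median difference of 0.45 on the log2(occupancy + 0.1) scale against 0.14 over all promoters. At inactive promoters they were 12.9% and 18.4%, and the median difference was −0.04. At high-patterned inducible promoters 18 of 56 (32.1%) were higher and 5 (8.93%) lower in the NDR, and likewise 18 (32.1%) higher and 8 (14.3%) lower at +1. At low-patterned inducible promoters the NDR counts were 12 (21.4%) and 15 (26.8%).

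The gene lists lay on both sides of these figures. Of 36 tested promoters of TNF and NF-κB early response genes (30 genes), 12 were higher and 9 lower in the NDR and 11 higher and 9 lower at +1, with median log2 differences of 0.07 and 0.37. Of 13 immediate early and feedback promoters, 2 were higher and 1 lower in the NDR. Genes of pol-II pausing, elongation and the Integrator complex, which cleaves nascent transcripts, had 12 of 30 promoters higher and 3 lower in the NDR, with a median log2 difference of 1.20. Their mean NDR occupancies were 0.713 and 0.661 in S7P and 0.662 and 0.344 in H3K4me1, so that the low value was that of H3K4me1 replicate 2. Ribosomal protein promoters were higher in 26 of 69 (37.7%) and lower in 7 (10.1%) in the NDR, and higher in 26 and lower in 15 at +1.

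Fibroblast marker promoters leaned otherwise, with 0 of 17 higher and 5 (29.4%) lower in the NDR and 6 (35.3%) higher and 0 lower at +1. At the 17 immune cell promoters 2 were higher and 7 (41.2%) lower in the NDR, and the median difference was −0.87. The 14 housekeeping reference promoters had 6 higher and 1 lower in the NDR, and the 7 epithelial, muscle and neural promoters 0 higher and 2 lower. Replication-dependent histone genes, expressed in S phase from compact clusters, had 12 of 65 higher and 6 lower in the NDR; the authors kept fragments that matched 1 promoter region, so the coverage of near-identical copies among them is uncertain. U snRNA and small nucleolar RNA genes, whose snRNA members depend on the serine 7 mark for processing, had 17 of 97 higher and 18 lower in the NDR. The median difference was −0.02. Their mean NDR occupancies were 1.04 and 0.991 in S7P and 1.03 and 1.05 in H3K4me1, so the mean over the whole list showed no depleted region with either antibody. The snRNA members were not taken apart from the small nucleolar RNA genes, so these values do not describe snRNA promoters alone. S7P covered 93.1% and 95.2% of their bins against 81.3% and 70.7% in H3K4me1. Numbered zinc finger promoters were higher at +1 in 62 of 207 and lower in 26, and olfactory receptor promoters in 7 and 10 of 92. None of these promoters was called.

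The 4 inducible or TNF-responsive promoters Rnd1, Cxcl1, Icam1 and Ccl2 are shown by the 150 bases upstream of the TSS, which are the window of the NDR values below, because they differ in NDR occupancy between antibodies or in motif content. The bases are from the mm9 genome (NCBI build 37), 5′ to 3′ on the strand of the gene, and capitals mark any match on either strand to the motifs TATAAA (TBP), CCAAT (NF-Y), GGGCGG (Sp1), TGANTCA (AP-1), GGNNTTTCC (NF-κB) or GGAAGTG (ETS). Rnd1 is at chr15:98507893-98508042 (minus strand), Cxcl1 at chr5:91320122-91320271 (plus strand), Icam1 at chr9:20820255-20820404 (plus strand) and Ccl2 at chr11:81848930-81849079 (plus strand).
Rnd1: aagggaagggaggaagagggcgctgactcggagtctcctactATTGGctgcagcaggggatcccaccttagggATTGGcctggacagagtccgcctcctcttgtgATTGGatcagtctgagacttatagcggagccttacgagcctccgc
Cxcl1: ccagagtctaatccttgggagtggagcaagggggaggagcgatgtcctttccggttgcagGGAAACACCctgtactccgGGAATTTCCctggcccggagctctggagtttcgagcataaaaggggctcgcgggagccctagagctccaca
Icam1: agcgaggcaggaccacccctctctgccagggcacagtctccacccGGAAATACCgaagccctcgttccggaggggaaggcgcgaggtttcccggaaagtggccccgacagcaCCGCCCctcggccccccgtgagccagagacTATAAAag
Ccl2: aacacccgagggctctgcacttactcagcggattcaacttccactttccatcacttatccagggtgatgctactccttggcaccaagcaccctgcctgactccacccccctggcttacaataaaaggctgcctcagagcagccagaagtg

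The Rnd1 window held 3 CCAAT matches, Cxcl1 held 2 GGNNTTTCC matches that do not overlap, Icam1 held 1 match to TATAAA, 1 to GGGCGG and 1 to GGNNTTTCC, and Ccl2 held none of the 6 motifs. Over the 25738 annotated promoters with a full window, TATAAA was present in 7.42%, CCAAT in 26.1%, GGGCGG in 37.4%, TGANTCA in 3.86%, GGNNTTTCC in 3.11% and GGAAGTG in 6.68%. Among the 56 low-patterned inducible promoters GGNNTTTCC was present in 9 (16.1%) and TATAAA in 9 (16.1%), and 16 (28.6%) lay in a CpG island. Among the 56 high-patterned ones the counts were 4 (7.14%), 4 (7.14%) and 38 (67.9%). A match describes letters in this window and not binding.

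Rnd1 encodes a small GTPase that loosens the actin cytoskeleton, and its promoter was high-patterned and inducible. NDR occupancy was 0.213 and 0.545 in S7P and 0 in both H3K4me1 libraries. At +1 it was 2.09 and 2.20 in S7P and 3.86 and 3.81 in H3K4me1. Both windows separated the antibodies, the S7P profile being shallower at either place, and the patterning level was accordingly 8.96 and 7.77 in S7P against 19.2 and 19.9 in H3K4me1. None passed: the difference in patterning level was −11.2 (SE 3.57, limma adjusted p = 0.747) and at +1 −0.81 on the log2 scale (SE 0.27, adjusted p = 0.516). The level at Rnd1 was 18.6 in the pooled resting H3K4me1 set and 16.1 in the S5P library, both nearer to the H3K4me1 values.

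Cxcl1 and Ccl2 encode chemokines that draw neutrophils and monocytes to inflamed tissue. At Cxcl1 the NDR window held 0.864 and 0.639 in S7P and 1.90 and 1.49 in H3K4me1, and +1 held 1.46 and 1.18 in S7P and 0.0712 and 0 in H3K4me1. S7P chromatin thus had the lower NDR and the higher +1 signal of these 4 libraries, but the promoter's score of 93.75 kept it out of the test. Cxcl1 was high-patterned in the pooled resting H3K4me1 set, with a level of 10.1, and had 10.0 in the S5P library. The level was 0.416 and 4.15 in S7P and −11.2 and −17.3 in the 2 control H3K4me1 libraries, which covered 77.5% and 55% of its bins. The pattern was therefore not limited to S7P chromatin. At Ccl2 the NDR values were 0.743 and 0.420 in S7P and 0.510 and 1.58 in H3K4me1, which overlap, and the +1 values were 1.72 and 1.18 in S7P and 1.16 and 0.155 in H3K4me1 (difference 1.43 on the log2 scale, SE 1.15, adjusted p = 0.751). H3K4me1 replicate 2 stood apart from the other 3 libraries at this promoter.

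Icam1, an endothelial and fibroblast adhesion receptor for leukocytes, fell in none of the 3 classes. Its NDR occupancy was 0.707 and 0.841 in S7P and 1.09 and 0.914 in H3K4me1, and its +1 occupancy 0.926 and 1.54 in S7P and 0.467 and 0 in H3K4me1. The groups did not overlap at either window, and neither difference passed (adjusted p = 0.816 and 0.737). Its patterning level was 6.44 and 2.91 in S7P and −3.16 and −3.86 in H3K4me1.

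Nfkbia and Tnfaip3 encode IκBα and A20, feedback inhibitors of NF-κB. At Nfkbia (TSS at position 56593634 of chromosome 12, score 100, not tested) the NDR held 0.393 and 0.177 in S7P and 0.332 and 0 in H3K4me1, and its +1 window 1.42 and 0.960 against 2.58 and 0. The 2 H3K4me1 libraries were far apart at this +1 nucleosome, with the S7P values between them. At Tnfaip3, a low-patterned inducible promoter with 92.4% of bins covered, the NDR held 1.17 and 0.924 in S7P and 0.514 and 1.02 in H3K4me1, and the patterning level was 2.65 and 2.74 in S7P and 5.75 and 2.99 in H3K4me1. No NDR was visible there in S7P chromatin, whose occupancy was near the library mean.

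Mcm5, a subunit of the replicative helicase, and Mrpl49, a protein of the mitochondrial ribosome, are expressed in resting fibroblasts. At Mcm5 the NDR held 1.20 and 1.07 in S7P and 1.38 and 0 in H3K4me1, with patterning levels of −1.30 and −4.32 in S7P and −3.08 and 23.2 in H3K4me1. Of the 4 libraries, H3K4me1 replicate 2 was the one with an empty NDR at Mcm5, and it covered 52% of bins there against 84% to 91% in the others. The S5P library was also low in this window, at 0.0849 with a patterning level of 13, and the pooled resting H3K4me1 set had a level of 13.2. At Mrpl49 the NDR held 0.610 and 0.229 in S7P and 0.0166 and 0 in H3K4me1 (log2 difference 2.16, SE 0.54, adjusted p = 0.33), and +1 held 2.10 and 3.12 in S7P and 1.55 and 4.24 in H3K4me1. Another TSS lies 138 bp from that of Mrpl49.

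**Figure D5:**
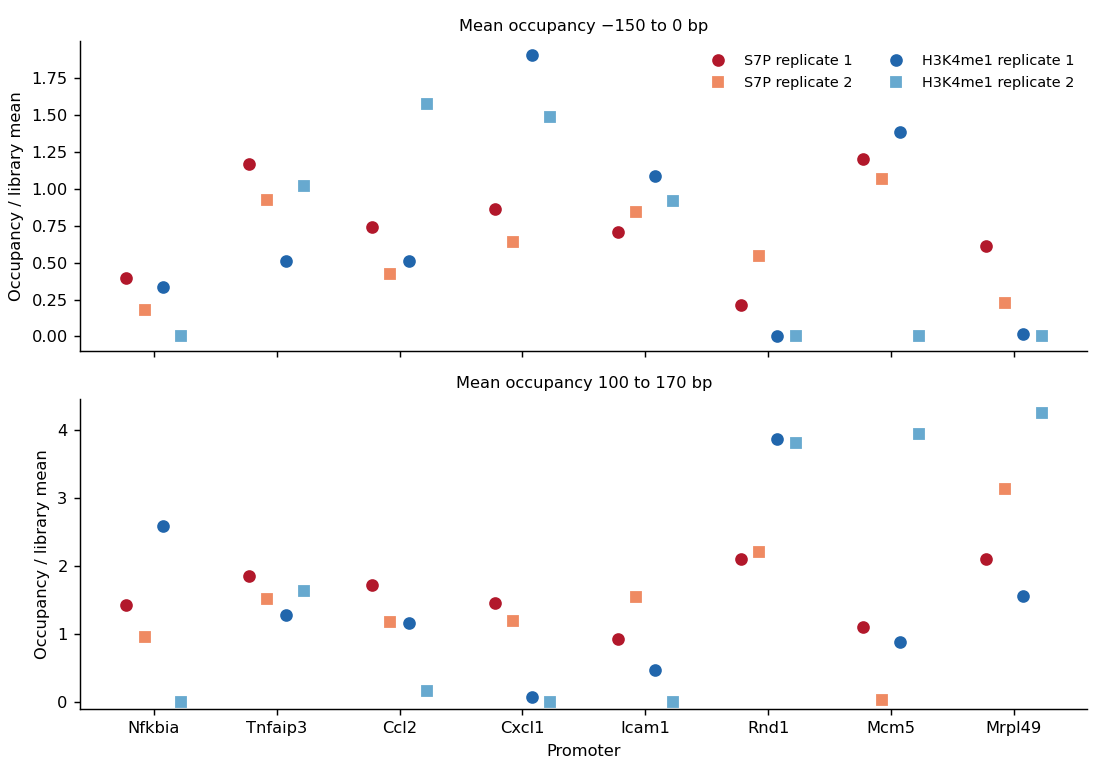
Mean occupancy divided by the library mean (y axes) from −150 to 0 bp (top) and from 100 to 170 bp (bottom) at 8 promoters (x axis), 1 point per library. At Rnd1 the 2 S7P points lie above the H3K4me1 points in the upper and below them in the lower panel, and at Cxcl1 the order is the opposite in both panels.

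The promoters with the smallest p among those covered at 70% or more, 5 per measure and direction, are given as descriptions, since none passed. That coverage is a mean over the 4 libraries, which differed widely at some promoters, and the part of coverage was not tested. For patterning level the 5 higher in S7P were Cdh3 (P-cadherin), Sun1 (a nuclear envelope protein), Zfp572, Cspp1 and Jarid2 (a Polycomb partner). Sun1 had patterning levels of 12.6 and 13 in S7P and −4.60 and −4.75 in H3K4me1. Its +1 window held 2.40 and 2.40 in S7P and 0 and 0.0204 in H3K4me1, and its NDR 0.236 and 0.0082 against 1.25 and 1.25. Sun1 was classed as inactive, and it had a level of 16.1 in the pooled resting H3K4me1 set and 14 in the S5P library, both nearer to the S7P values. Cdh3 had 8.37 and 10.1 in S7P and −10.3 and −11.7 in H3K4me1, with another TSS 22 bp away. It had a level of −6.14 in the pooled resting H3K4me1 set and 0.663 in the S5P library. Cspp1, a low-patterned active promoter, had 7.53 and 15.1 in S7P against −10.7 and −17.8 in H3K4me1. Its bins were covered at 97% and 98.5% in S7P and at 53% and 46% in H3K4me1.

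The 5 lower in S7P were Dbn1 (drebrin, an actin binding protein), Fbxo31, Nfe2l3, Pex3 and Qrich1. Dbn1 had patterning levels of −5.42 and −7.69 in S7P and 14.4 and 13.9 in H3K4me1, with NDR values of 2.44 and 1.86 against 0.468 and 0. Its level was 7.39 in the pooled resting H3K4me1 set and 9.84 in the S5P library, both nearer to the H3K4me1 values. Dbn1 bins were covered at 62% and 92.5% in S7P and at 93% and 80% in H3K4me1. Qrich1 was patterned in all 4 libraries, at 8.51 and 11.6 in S7P and 31.2 and 32.6 in H3K4me1, and its +1 nucleosome held 2.50 and 2.08 in S7P against 6.93 and 8.0. Its bins were covered at 90.5% and 100% in S7P but at 63.5% and 36% in H3K4me1. Qrich1 levels of 16.0 in the pooled resting H3K4me1 set and 22.6 in the S5P library lay between the antibodies. The adjusted p was 0.747 at each of these 10 promoters.

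For the NDR, the 5 higher in S7P (Zfat, Pagr1a, Gopc, Nop10 and Cep20) had H3K4me1 values of 0 in both libraries and S7P values of 0.117 to 0.185, a low level in each. The 5 lower were Per1 (a circadian clock repressor), Snrpf, Arhgap12, Cbl and Emc6. Cbl, an E3 ubiquitin ligase of receptor tyrosine kinases and a low-patterned active promoter, had 0.435 and 0.390 in S7P and 2.87 and 2.89 in H3K4me1. Its log2 difference was −2.54 (SE 0.32, adjusted p = 0.33), and its patterning level was 1.35 and 3.30 in S7P and −13 and −17.4 in H3K4me1. The level at Cbl was −10.3 in the pooled resting H3K4me1 set and 7.12 in the S5P library. Emc6 had 0.346 and 0.271 in S7P and 2.82 and 2.09 in H3K4me1, with another TSS 34 bp away. Its patterning level was 10.1 and 10.3 in S7P and −11.6 and −5.54 in H3K4me1. Emc6 had a level of 7.90 in the pooled resting H3K4me1 set and 17.5 in the S5P library, both nearer to the S7P values. Its bins were covered at 92% and 98% in S7P and at 60% and 52% in H3K4me1. Per1 and Snrpf were at 0 in both S7P libraries and at 0.160 to 0.284 in H3K4me1.

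At +1, Emp3, Ddx41, Mastl, Klra5 and Cd44 were the 5 higher in S7P, at 0.198 to 0.413 against 0 to 0.0042 in H3K4me1. The hyaluronan receptor gene Cd44, a low-patterned active promoter, had 0.399 and 0.283 in S7P and 0 in both H3K4me1 libraries. Msr1 (a macrophage scavenger receptor), Rgs14, Ncf4, Dnaic2 and Abcc9 were the 5 lower, at 0 in both S7P libraries and at 0.404 to 0.638 in H3K4me1. Occupancies listed at 0 give no fold, and these extremes lie at the low end of the +1 range of active promoters, whose library means were 1.37 to 1.49.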

How the data were processed

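Promoter nucleosome occupancy was measured by ChIP-MNase-seq. Per the Methods and labels, the authors aligned reads to mm9 with Bowtie, removed excess duplicates, counted fragments in 10 bp bins, divided counts by the fragments in the surrounding 1 kb and averaged 50 bp bins from −1000 to 1000 bp around each TSS; the deposited values are this normalised signal. Empty cells were read as 0. The deposited promoter table gives a coverage score, an expression score in resting fibroblasts and the authors' log2 array difference after TNF-α, a comparison of theirs that was used only to class promoters as inducible (above 0.35) and is not printed. Symbols were found for 96.3% of promoters. Depth per library is not in the files, and intervals cover counting error only.

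Each library was divided by its mean over the 13559 promoters. The patterning level is the sum over bins of mean-centred occupancy times the mean active profile of the pooled resting H3K4me1 set, scaled to run from 0 to 1 and centred. NDR (−150 to 0 bp) and +1 (100 to 170 bp) occupancies were tested as log2(occupancy + 0.1). Promoters were tested with limma 3.58.1 in R 4.3.3 (trend, Benjamini-Hochberg, 0.05), after tests on simulated data, and library values with exact permutation tests (Python 3.11). Expression cut-offs followed the Methods, but the authors' significance criterion for inducible promoters was not applied, since the table gives no p; its array column holds a value at 2949 promoters. Inducible low-patterned promoters lie below the class median and, by a cut-off set here, active ones in the lowest 25% of the pooled resting set. Promoters named are the 5 per measure and direction with the smallest p, groups not overlapping and mean coverage of 70% or more, plus 8 fixed genes. The members, lists and windows were chosen with earlier results of these data known. The authors describe the replicates as biological. Alternatives covered scaling, filters, windows, pseudocounts, template, reference set and leaving out each library.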

Additional observations from a re-analysis of the deposited data

How the results depend on the processing

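Calls per promoter were 0 for patterning level under all 12 alternatives run, and 0 for the NDR and +1 under 11 of 14 each. The exceptions were the 6-library fit, with 79 for the NDR and 61 for +1, and fits without 1 library, from 0 to 706 for the NDR and from 0 to 239 for +1, mostly at windows listed at 0. With replicate number as a block, 0 promoters were called for each measure; the numbers share only a name, since deviations of replicates 1 correlated at 0.014, 0.0068 and −0.0037 for the 3 measures. The NDR ratio difference stayed above 0 in all 11 alternatives, at 0.19 on square roots and 0.25 against the pooled stimulated set, which has no replicate; without 1 library it ran from 0.056 to 0.12. The difference after +1 also stayed above 0 (0.26 as deposited, 0.21 on square roots; 0.094 to 0.13 without 1 library), as did the upstream shoulder (0.22 as deposited, 0.11 on square roots, 0.080 against the pooled set; 0.020 to 0.051 without 1 library). The +1 height difference was 0.30 as deposited, 0.16 on square roots and −0.064 against the pooled set, and −0.02 to 0.12 without 1 library. The median patterning difference at active promoters changed sign: 0.48 as deposited and 0.50 with an S7P template, but −2.61 on square roots and −1.90 against the pooled set, and −0.84 to 0.08 without 1 library. At inducible low-patterned promoters it was 1.08 where no other TSS lay within 5 kb and −1.51 to 0.89 without 1 library, and at active low-patterned promoters −0.74 on square roots and −0.30 to 0.71 without 1 library. The cause of these changes was not tested. The pooled sets and the number of promoters with empty windows limit what single promoters can show.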
